A study of Mus musculus with 8 samples.

Results

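A set of 30 genes of cholesterol synthesis, sterol sensing and sterol transport was chosen by symbol, and 28 of the 30 had a probe set that names a single gene, out of 19938 gene symbols measured this way. They comprise 17 enzymes of synthesis (Hmgcs1, Mvk, Pmvk, Mvd, Idi1 and Fdps of the mevalonate pathway, and Fdft1, Sqle, Lss, Cyp51, Tm7sf2, Msmo1, Nsdhl, Hsd17b7, Ebp, Sc5d and Dhcr7 of the squalene and sterol steps), 5 sensing genes (Srebf1, Srebf2, Insig1, Insig2 and Scap) and 6 transport genes (Stard4, Npc1, Npc2, Abca1, Abcg1 and Mylip). Acat2 and Soat1 had no such probe set and were not analysed here. Whole-cell RNA of mouse cells, strain C57BL/6, was hybridised to 8 GeneChip arrays. Each of 4 groups held 2 arrays: cells with an empty vector, with full-length NUP98-HOXA9, with the NUP98-HOXA9 deletion mutant delFG1, and with the deletion mutant delFG2. NUP98-HOXA9 is a leukaemia fusion that joins the phenylalanine-glycine (FG) repeat part of the nucleoporin NUP98 to the homeodomain of HOXA9, and the deletions address what its NUP98 part contributes. The kind of cell, the residues removed, the promoter that drives the fusion, whether a line is clonal or pooled: none of this is given in the sources used here.

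Cells make cholesterol from acetyl-CoA. The mevalonate pathway builds isoprenoid units, squalene is formed from them, and a series of sterol enzymes turns its cyclised product lanosterol into cholesterol. When sterols in the endoplasmic reticulum fall, SCAP escorts SREBP factors to the Golgi, where they are released to switch on synthesis genes; INSIG proteins hold them back when sterols are plentiful. Oxysterols in turn activate the nuclear receptor LXR, which switches on export pumps such as ABCA1 and ABCG1, most prominently in macrophages.

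The arrays of each group carry the numbers 1 and 2. Levels are given as log2(intensity + 1), and a difference is the difference of 2 group means on that scale. The median intensity of the arrays lay between 80.7 and 83.2, and arrays of a group correlated with r of 0.995 or 0.996 across genes. The array of delFG2 numbered 1 correlated more closely with the full-length array of its number (r = 0.9969) than with the empty vector array (r = 0.9949). The array of delFG2 numbered 2 correlated more closely with the empty vector array of its number (r = 0.9979) than with the full-length array (r = 0.9971). Because same-numbered arrays deviated together across genes, a fit with the number as a term (the replicate block) was made beside the fit without it. Counts of members that differed between groups are given from both fits. Some single genes and most results of the other lists are given with the block alone. An SE given without naming the fit is from the fit without the block. No label states whether the 2 arrays of a group stem from different cultures. The p-values therefore describe the spread among these 8 arrays alone, and that spread may be technical.

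**Figure D1:**
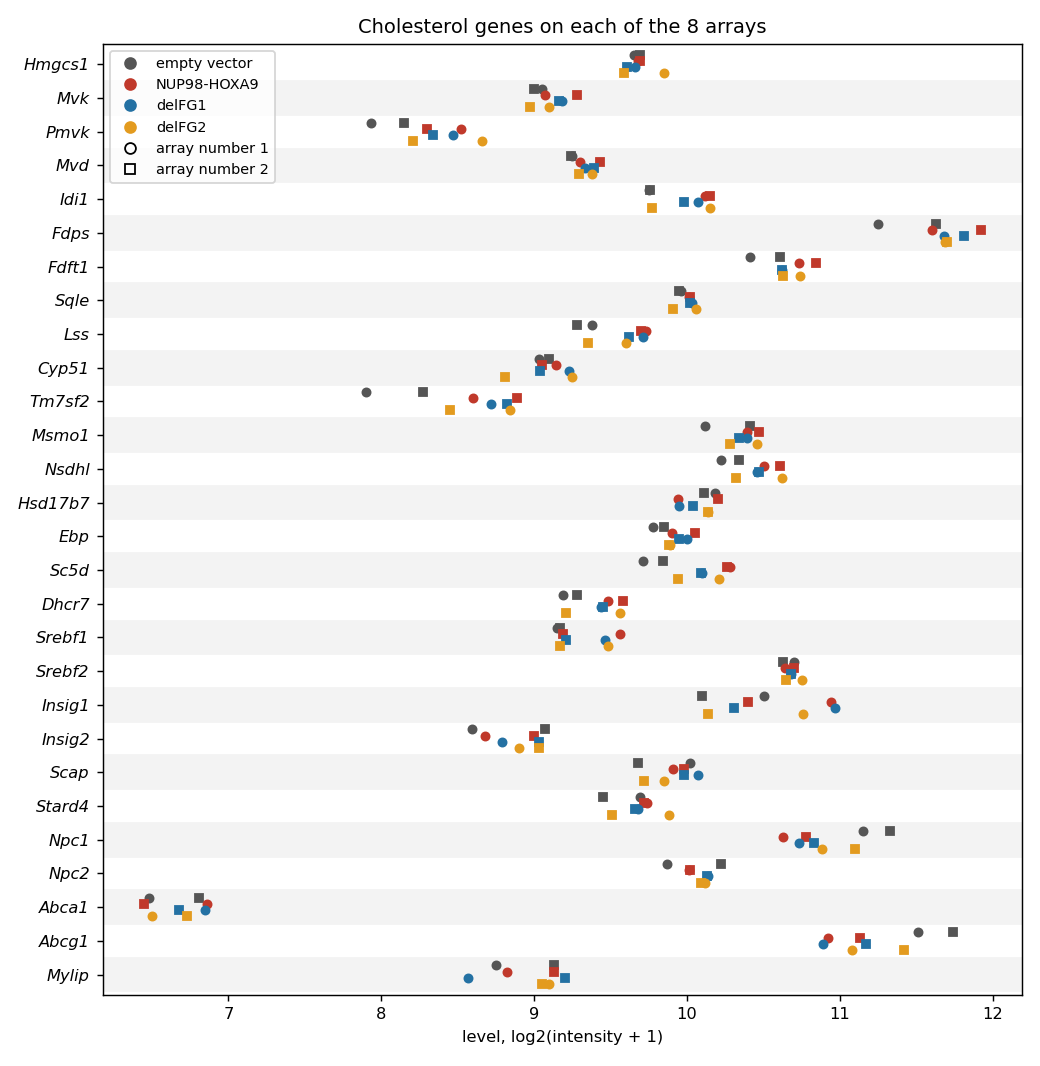
Level of each of the 28 measured genes, as log2(intensity + 1) on the x axis, on each of the 8 arrays; colours are the groups, circles the arrays numbered 1 and squares those numbered 2. Both empty vector points lie to the right of all fusion points for Npc1 and Abcg1, and to the left of both full-length points for Sc5d, Lss, Tm7sf2 and Idi1.

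With the full-length fusion, most of the 17 listed synthesis enzymes had higher means than with the empty vector, and a pair of sterol transport genes lower ones. A list of 9 further genes of synthesis and uptake did not move that way (median difference -0.03). With the replicate block the enzyme genes Sc5d, Tm7sf2, Lss and Fdps and the sensing gene Insig1 rose, by 0.32 to 0.65 on the log2 scale, and Npc1 and Abcg1 fell by 0.53 and 0.60. These are 5 of 28 members higher (17.9%) and 2 lower (7.14%). By limma with the block and Benjamini-Hochberg adjustment, 6.61% of all 21789 probe sets tested passed, 2.18% higher and 4.43% lower. Without the block, in the fit planned as the main one, 0 members passed by limma, and 9 had an unadjusted p under 0.05. Of all probe sets 0.124% and 9.54% did. All 28 members were chosen with earlier results of these data known, so their counts are a description.

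Of the 17 synthesis enzymes, 16 had a higher mean with the full-length fusion, and Hsd17b7 alone a lower one (difference -0.08); 56.6% of all probe sets had a higher mean. The median difference was 0.27, where that of all probe sets was 0.02. In 14 of 17 the full-length array was higher within both numbers, against 33.7% of all probe sets. For 12 of 17 both full-length arrays lay above both empty vector arrays, against 23.4% of all probe sets, and for 0 of 17 below them, against 15.6%. The 4 enzymes that rose with the block are 23.5% of the list.

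Sc5d, the desaturase that places the double bond of the sterol B ring, gave the clearest rise among the enzymes. Its level in the arrays numbered 1 and 2 was 9.71 and 9.84 with the empty vector, 10.28 and 10.26 with the full-length fusion, 10.10 and 10.09 with delFG1, and 10.21 and 9.94 with delFG2. All 6 fusion and mutant arrays lay above both empty vector arrays. The difference of full-length fusion and empty vector was 0.49 (SE 0.11), a ratio of 1.41 (limma adjusted p = 0.00968 with the block, 0.205 without).

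Lss, lanosterol synthase, closes squalene epoxide into the first sterol ring system. Its level was 9.38 and 9.28 with the empty vector, 9.73 and 9.70 with the full-length fusion, 9.71 and 9.62 with delFG1, and 9.60 and 9.35 with delFG2. The full-length and delFG1 arrays lay above both empty vector arrays, and the second delFG2 array lay between those. Lss rose by 0.38 (SE 0.11) with the full-length fusion (limma adjusted p = 0.0188 with the block, 0.331 without).

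Tm7sf2, a sterol C14 reductase, had the largest difference of any member. Its level was 7.90 and 8.27 with the empty vector, 8.60 and 8.89 with the full-length fusion, 8.72 and 8.82 with delFG1, and 8.84 and 8.45 with delFG2. The groups with a fusion or mutant did not overlap the empty vector. The rise of 0.65 (SE 0.18) with the full-length fusion is a ratio of 1.57 (limma adjusted p = 0.0288 with the block, 0.289 without).

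Fdps makes farnesyl diphosphate, the branch point to sterols and protein prenylation. Its level was 11.25 and 11.63 with the empty vector, 11.60 and 11.92 with the full-length fusion, 11.68 and 11.81 with delFG1, and 11.69 and 11.70 with delFG2. Full-length and empty vector arrays overlapped, since the arrays numbered 2 were higher in both groups, yet within each number the full-length array was higher, by 0.35 and 0.29. The rise of 0.32 (SE 0.14) passed with the block (limma adjusted p = 0.0404) and not without it (0.520).

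Leaving out 1 array and keeping the block ended these calls in part. Without the full-length array numbered 1 or 2, the adjusted p by limma was 0.117 and 0.135 for Sc5d, 0.11 and 0.213 for Lss, 0.127 and 0.295 for Tm7sf2, and 0.145 and 0.342 for Fdps. Without the empty vector array numbered 1 it was 0.179 for Tm7sf2 and 0.217 for Fdps, while Sc5d and Lss still passed. Without the empty vector array numbered 2, more members passed than with all arrays. The share of all probe sets in that fit is not given here, so this is no result about the members.

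The other enzymes did not pass in either fit. Idi1, which isomerises isopentenyl diphosphate, just missed with the block. Its level was 9.75 and 9.76 with the empty vector, 10.12 and 10.15 with the full-length fusion, 10.07 and 9.98 with delFG1, and 10.15 and 9.77 with delFG2. The difference of full-length fusion and empty vector was 0.37, with an SE of 0.13 without the block and 0.10 with it (limma adjusted p = 0.0508 with the block). A second Idi1 probe set with the same listed transcripts gave 0.35. Fdft1, squalene synthase, gave 0.27 (block adjusted p = 0.0720), and its second probe set 0.21. For both genes the brighter of 2 probe sets was taken, and whether either probe set reads a related copy is not known.

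Pmvk, phosphomevalonate kinase, had a difference of 0.37 and Dhcr7, the last-step reductase, one of 0.29, and Nsdhl, of the C4 demethylation complex, one of 0.27. Values were smaller for Msmo1 (0.17), Nsdhl's partner in C4 demethylation, for Ebp (0.16), the sterol isomerase, and for the kinase Mvk (0.15) and the decarboxylase Mvd (0.12). Hmgcs1, HMG-CoA synthase (0.01), Cyp51, lanosterol demethylase (0.03), and Sqle, squalene epoxidase (0.06), were closest to 0 with Hsd17b7. The 95% interval with the block was -0.18 to 0.21 for Hmgcs1, -0.22 to 0.28 for Cyp51 and -0.10 to 0.22 for Sqle. Hmgcs1 and Sqle are textbook SREBP-2 targets, and Insig1, with a difference of 0.37, is a target of SREBP too. The part of SREBP in these differences was not tested. Whether members differ from each other was not tested.

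**Figure D2:**
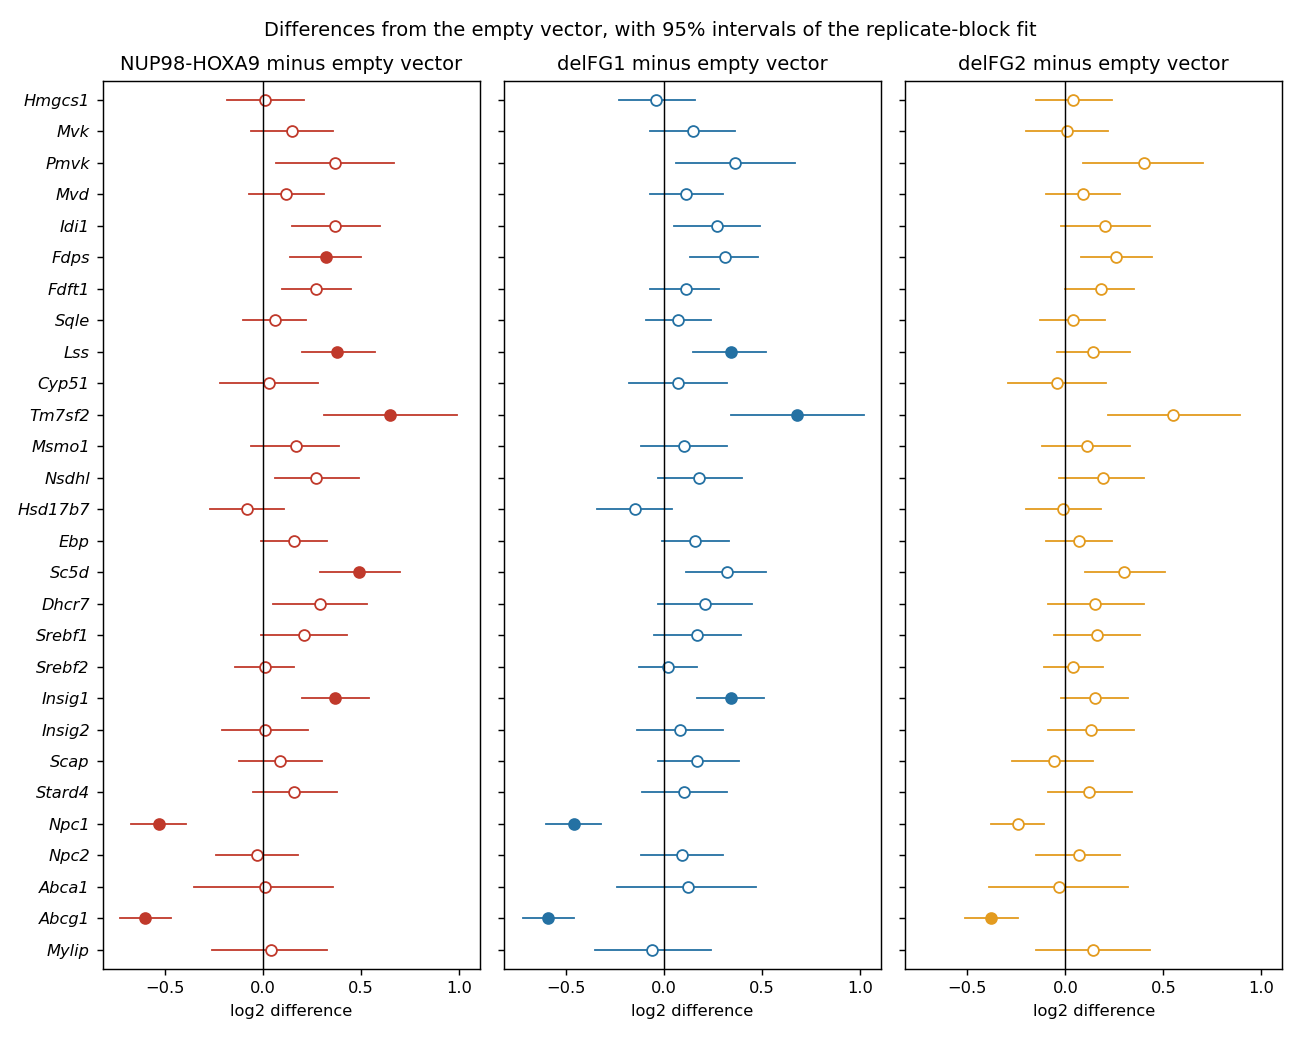
Log2 difference of each member from the empty vector (x axis) for the full-length fusion, delFG1 and delFG2, with the 95% interval of the fit with the replicate block; filled points have an adjusted p under the 0.05 threshold in that fit. Npc1 and Abcg1 lie left of 0 in all 3 panels, and most enzymes lie right of 0; the 3 panels share the same empty vector arrays.

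The promoters of 24 of the 30 members were found in the RefSeq table (build GRCm38.p6), with 32 start sites. The 250 bases before each start were searched on both strands for 5 motifs: the sterol regulatory element TCACNCCAC, to which SREBP binds, the NF-Y box CCAAT, whose factor NF-Y acts beside SREBP at many sterol genes, the GC box GGGCGG, the E-box CACGTG, and the LXR direct repeat. The NF-Y box was in 22 of 32 (68.8%), against 33.8% of all 32851 promoters in the table. The GC box was in 25 (78.1%, against 32.7%), the E-box in 6 (18.8%, against 6.02%), the sterol regulatory element in 1 (3.12%, against 1.05%) and the LXR repeat in 0 (against 0.0152%). None of these motifs contains another, though matches may overlap in a promoter, and a match is a description of letters, not a site.

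The promoters of 6 members are shown, each from 250 bases before the start to the base before it, 5′ to 3′ on the gene's strand. They are that of Hmgcs1, with the single match to the sterol regulatory element, and those of the 5 measured members with an entry and the smallest p with the block, for comparison between genes that rose (Sc5d, Insig1, Lss, Tm7sf2), one that just missed (Idi1) and one near 0 (Hmgcs1). Capitals mark matches to the sterol regulatory element and to the NF-Y box, which reads ATTGG where it lies on the other strand.
Hmgcs1 (chr13:119690101-119690350, plus strand): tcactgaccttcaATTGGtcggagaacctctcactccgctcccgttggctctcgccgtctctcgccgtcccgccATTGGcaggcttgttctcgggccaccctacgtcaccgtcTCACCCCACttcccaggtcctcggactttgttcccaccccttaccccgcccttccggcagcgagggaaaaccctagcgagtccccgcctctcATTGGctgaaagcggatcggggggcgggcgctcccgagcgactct
Sc5d (chr9:42264301-42264550, minus strand): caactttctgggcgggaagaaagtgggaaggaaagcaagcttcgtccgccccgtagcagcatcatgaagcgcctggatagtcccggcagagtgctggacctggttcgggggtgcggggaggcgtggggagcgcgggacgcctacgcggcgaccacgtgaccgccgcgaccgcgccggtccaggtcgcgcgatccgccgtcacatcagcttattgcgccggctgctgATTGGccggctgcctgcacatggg
Insig1 (chr5:28071162-28071411, plus strand): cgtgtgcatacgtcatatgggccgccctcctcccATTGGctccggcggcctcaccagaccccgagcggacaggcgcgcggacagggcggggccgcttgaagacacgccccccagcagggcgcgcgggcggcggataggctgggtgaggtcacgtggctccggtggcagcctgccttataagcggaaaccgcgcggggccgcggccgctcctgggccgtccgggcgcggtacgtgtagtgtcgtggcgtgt
Lss (chr10:76531355-76531604, plus strand): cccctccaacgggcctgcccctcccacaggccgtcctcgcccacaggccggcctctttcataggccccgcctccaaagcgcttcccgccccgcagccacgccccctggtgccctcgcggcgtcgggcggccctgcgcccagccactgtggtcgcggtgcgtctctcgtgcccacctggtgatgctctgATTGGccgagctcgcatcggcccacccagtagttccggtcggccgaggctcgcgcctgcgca
Tm7sf2 (chr19:6067851-6068100, minus strand): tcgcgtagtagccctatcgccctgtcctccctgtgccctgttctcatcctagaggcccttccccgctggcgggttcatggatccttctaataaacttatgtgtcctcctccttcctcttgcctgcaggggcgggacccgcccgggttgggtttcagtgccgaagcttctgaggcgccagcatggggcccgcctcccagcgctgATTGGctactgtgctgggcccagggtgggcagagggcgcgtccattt
Idi1 (chr13:8885356-8885605, plus strand): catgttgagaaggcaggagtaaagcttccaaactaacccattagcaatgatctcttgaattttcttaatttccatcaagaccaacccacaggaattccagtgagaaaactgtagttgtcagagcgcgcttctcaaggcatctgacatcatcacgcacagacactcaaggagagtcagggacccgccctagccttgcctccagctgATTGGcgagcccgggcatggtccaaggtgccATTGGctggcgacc
All 6 hold the NF-Y box on the other strand, and 21 of the 24 member genes with an entry hold it on either strand. With so few genes lacking the box, whether it goes with a rise was not tested. Hmgcs1 holds 3 copies and Idi1 holds 2. Npc1 and Abcg1 are among the 6 members with no entry, and their promoters were not analysed here.

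Of the 5 sensing genes, Insig1 rose with the block and the others did not pass. Insig1, itself a target of SREBP that retains SCAP in the endoplasmic reticulum, had a level of 10.50 and 10.10 with the empty vector, 10.94 and 10.40 with the full-length fusion, 10.97 and 10.31 with delFG1, and 10.76 and 10.14 with delFG2. In all 4 groups the array numbered 2 was lower, so the groups overlapped, while the full-length array exceeded the empty vector array of its own number by 0.44 and 0.30. The difference of 0.37 had an SE of 0.28 without the block and 0.08 with it (limma adjusted p = 0.759 and 0.0167). Without the empty vector array numbered 1 the block adjusted p was 0.0736, and without a full-length array 0.154 or 0.171.

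Srebf1, whose products lead fatty acid as well as sterol synthesis, differed by 0.41 between the arrays numbered 1 and by 0.01 between those numbered 2, a mean of 0.21 (block adjusted p = 0.302). Srebf2, the main factor of sterol synthesis genes, and Insig2 each differed by 0.01, with 95% block intervals of -0.14 to 0.16 and -0.21 to 0.23. Scap, the escort protein, differed by 0.09 (block interval -0.12 to 0.30).

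Both transport genes that fell are linked to the handling of cholesterol taken up by the cell. Npc1, the membrane protein that moves cholesterol out of late endosomes and lysosomes, had a level of 11.15 and 11.33 with the empty vector, 10.63 and 10.78 with the full-length fusion, 10.73 and 10.83 with delFG1, and 10.88 and 11.10 with delFG2. The empty vector arrays were above all 6 others. Npc1 fell by 0.53 (SE 0.11) with the full-length fusion, a ratio of 0.69 (limma adjusted p = 0.000643 with the block, 0.166 without).

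Abcg1, a pump that exports cholesterol to high-density lipoprotein, had a level of 11.51 and 11.74 with the empty vector, 10.92 and 11.13 with the full-length fusion, 10.89 and 11.17 with delFG1, and 11.08 and 11.42 with delFG2. Again the empty vector arrays were the highest. Abcg1 fell by 0.60 (SE 0.15) with the full-length fusion, by 0.60 within number 1 and by 0.61 within number 2 (limma adjusted p = 0.000249 with the block, 0.255 without). With the block, both genes passed whichever of the 8 arrays was left out, with an adjusted p of at most 0.0246 for Npc1 and 0.015 for Abcg1.

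The other 4 transport genes did not pass. Abca1, the pump that loads lipid-poor apolipoprotein and like Abcg1 a target of LXR, differed by 0.38 within number 1 and by -0.36 within number 2, a mean of 0.01 with a block interval of -0.35 to 0.36. Its mean level was only 6.67, near the medians of the arrays (6.71 to 6.76), where that of Abcg1 was 11.23. Whether this probe set detects Abca1 is not known. Npc2, the soluble lysosomal partner of NPC1, had a level of 9.87 and 10.22 with the empty vector, 10.01 and 10.02 with the full-length fusion, 10.14 and 10.13 with delFG1, and 10.12 and 10.09 with delFG2. Its full-length arrays lay between the empty vector arrays, with a difference of -0.03. Stard4, a cytosolic sterol carrier, differed by 0.16 and Mylip, a ligase that marks lipoprotein receptors for breakdown, by 0.04.

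**Figure D3:**
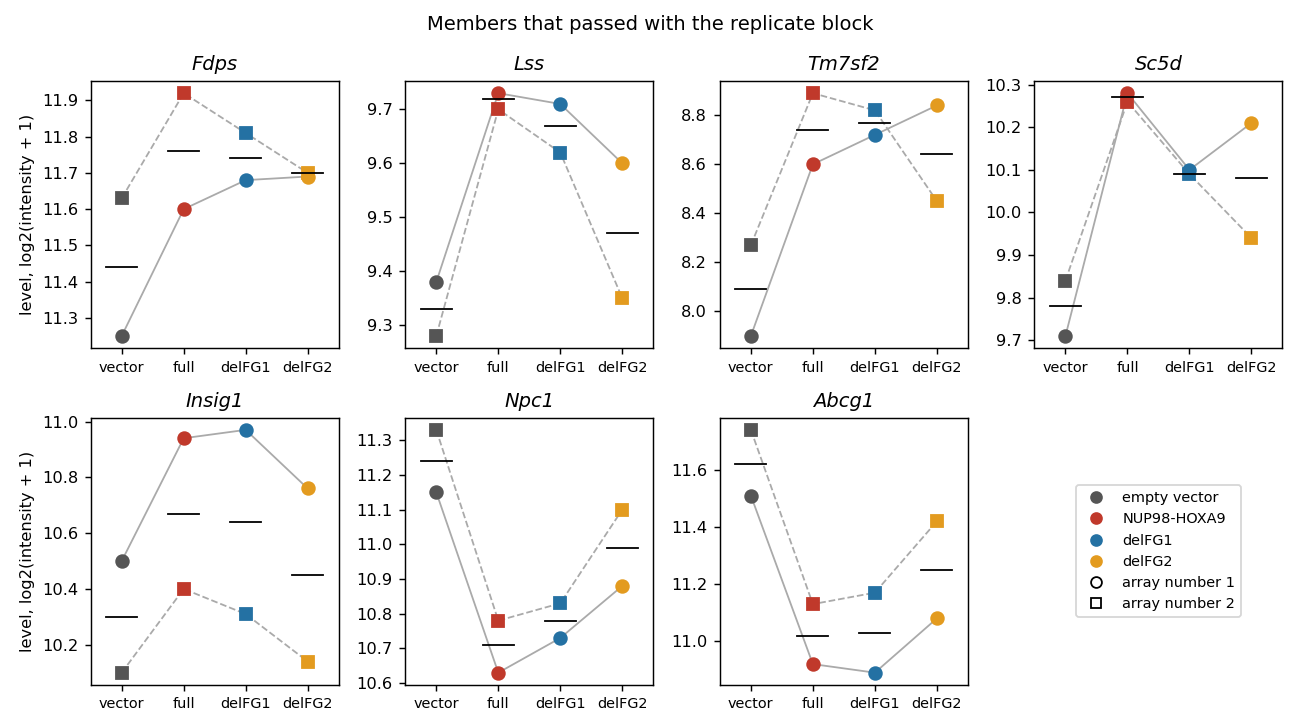
Levels of the 7 members that passed with the replicate block, as log2(intensity + 1), in the 4 groups (vector, full, delFG1, delFG2); circles with solid lines are the arrays numbered 1, squares with dashed lines those numbered 2, and black bars the group means. Lines of both numbers run upward from vector to full for Fdps, Lss, Tm7sf2, Sc5d and Insig1, and downward for Npc1 and Abcg1.

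Between delFG1 and the full-length fusion the members differed by -0.18 to 0.12. By limma 0 of 28 members differed from the full-length fusion without the block and 0 with it, and 0 had an unadjusted p under 0.05 without it. Of all probe sets 0.00918% and 0.0780% passed in these fits and 2.07% had such a p. Of the 17 enzymes, 4 had a higher mean with delFG1 (all probe sets: 50.8%), with a median difference of -0.05. For 7 both delFG1 arrays lay below both full-length arrays and for 1, Sqle, above, against 12.4% and 13.3% of all probe sets. Sc5d was lower by 0.18 within each number (difference -0.18, 95% block interval -0.38 to 0.03), and Fdft1 by 0.11 and 0.21 (difference -0.16, interval -0.34 to 0.01). Fdft1 levels were 10.41 and 10.61 with the empty vector, 10.73 and 10.84 with the full-length fusion, 10.62 and 10.62 with delFG1, and 10.74 and 10.63 with delFG2. Npc2 was higher by 0.12 (interval -0.09 to 0.33), and the remaining members differed by -0.11 to 0.11. For Npc1 and Abcg1 the intervals were -0.06 to 0.21 and -0.12 to 0.14.

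Against the empty vector, delFG1 gave 3 members higher (Lss, Tm7sf2, Insig1) and 2 lower (Npc1, Abcg1) with the block, where 6.12% of all probe sets passed, 1.94% higher and 4.18% lower. Without the block 0 passed by limma, and 5 had an unadjusted p under 0.05, against 0.129% and 9.61% of all probe sets. Of the 17 enzymes, 15 had a higher mean than with the empty vector (all probe sets: 57.8%), with a median of 0.16. For 13 the arrays lay wholly above and for 1 wholly below, against 24.6% and 16.1%. Side by side, and sharing the empty vector arrays, the differences of full-length fusion and delFG1 were 0.65 and 0.68 for Tm7sf2, 0.38 and 0.34 for Lss, 0.37 and 0.34 for Insig1, -0.53 and -0.46 for Npc1, and -0.60 and -0.59 for Abcg1. Sc5d (0.32, block adjusted p = 0.0808) and Fdps (0.31, block adjusted p = 0.0517) did not pass with delFG1. Npc1 and Abcg1 passed whichever array was left out, with a block adjusted p of at most 0.0407 and 0.00599. Lss, Tm7sf2 and Insig1 lost the call in 5 of 8 cases each, namely without either full-length array, either delFG1 array or the empty vector array numbered 1, with adjusted p up to 0.303, 0.156 and 0.439.

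With delFG2 the 2 arrays moved apart for the enzymes. In the arrays numbered 1, 14 of 17 enzymes were higher in delFG2 than in the full-length fusion, with a median difference of 0.08. In the arrays numbered 2, 0 of 17 were higher, with a median of -0.21. Of all probe sets 49.9% and 47.8% were higher in the same pairs, with medians of -0.00 and -0.01. Idi1 shows the contrast: the first delFG2 array (10.15) was beside the full-length array of its number (10.12) and the second (9.77) beside the empty vector array (9.76). Tm7sf2 differed from the full-length fusion by 0.24 in one pair and by -0.44 in the other.

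Between delFG2 and full-length fusion 0 of 28 members passed by limma without the block and 0 with it, where 0.0275% and 0.468% of all probe sets did. Without it 1 member, Npc1, had an unadjusted p under 0.05, against 2.76% of all probe sets. By group means 3 of 17 enzymes were higher (all probe sets: 47.7%), and for 3 the delFG2 arrays lay wholly below and for 0 wholly above (14.1% and 11.7%). Lss was lower within both numbers, by 0.13 and 0.35 (difference -0.24, block adjusted p = 0.396, interval -0.42 to -0.06), and Sc5d by 0.06 and 0.32 (difference -0.19, block adjusted p = 0.625).

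Npc1 and Abcg1 did not split this way. In the delFG2 arrays Npc1 exceeded the full-length arrays of the same number by 0.25 and 0.32 (difference 0.29, block adjusted p = 0.105, interval 0.15 to 0.43). Abcg1 was higher by 0.16 and 0.29 (difference 0.22, block adjusted p = 0.212, interval 0.09 to 0.36). Both delFG2 arrays of each gene lay between the full-length and the empty vector array of their number. Against the empty vector, Abcg1 fell by 0.38 with delFG2 (limma adjusted p = 0.0314 with the block), a call not made without it. It was the 1 member that passed, where 0.505% of all probe sets did, 0.106% higher and 0.399% lower. That call was lost in 6 of 8 cases of leaving out 1 array, all but those without the empty vector array numbered 2 or the delFG1 array numbered 1, with adjusted p up to 0.478. Without the block 0 passed by limma and 4 had an unadjusted p under 0.05, against 0.00459% and 4.43% of all probe sets. Of the 17 enzymes, 15 had a higher mean than with the empty vector (53.5%), with a median of 0.33 within number 1 and 0.02 within number 2; 8 lay wholly above and 0 wholly below (16.3% and 13.0%). Npc1 differed by -0.24 (block adjusted p = 0.132). Between delFG2 and delFG1 0 members passed by limma in either fit, and 0 had an unadjusted p under 0.05. Of all probe sets 0% and 0.537% passed and 3.13% had such a p. Of the 17 enzymes 6 had a higher mean with delFG2 (45.9%), and 2 lay wholly above and 3 wholly below (11.7% and 15.3%). The differences ran from -0.24 for Scap to 0.21 for Npc1 and Abcg1.

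**Figure D4:**
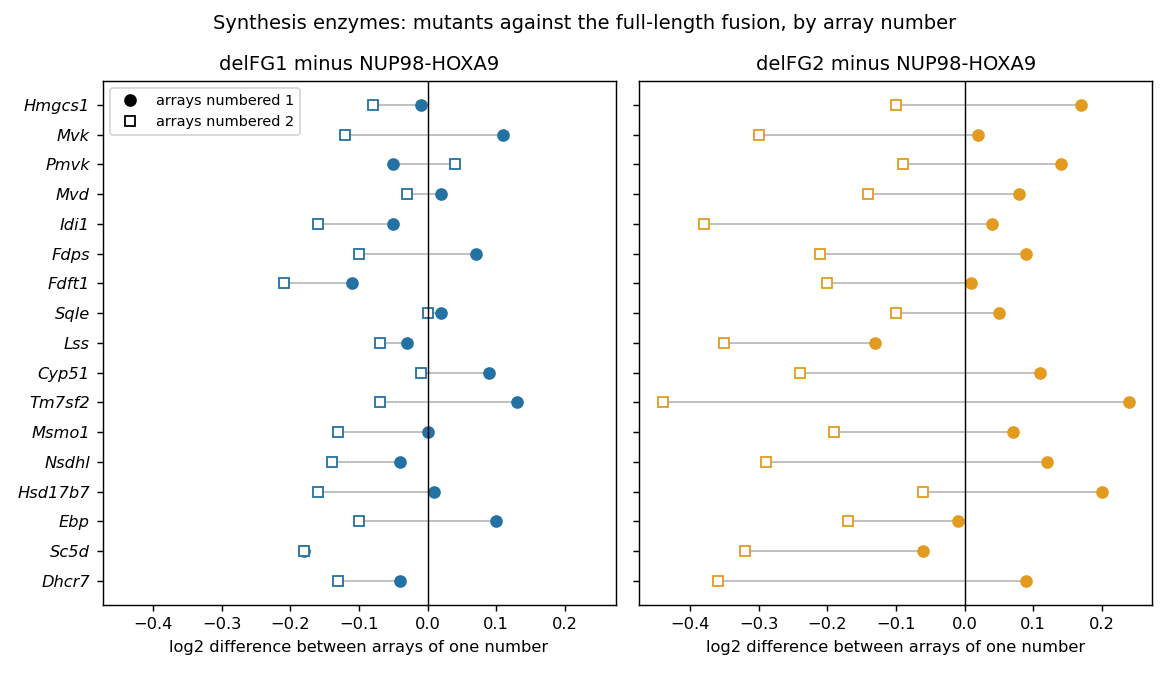
Log2 difference of each of the 17 synthesis enzymes between a mutant and the full-length fusion (x axis), taken between the arrays numbered 1 (filled circles) and between those numbered 2 (open squares). For delFG2, 14 circles lie right of 0 and all squares left of it; for delFG1 the points run from -0.21 to 0.13.

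In all, 5 members also differed between the numbers whatever the group, where 11.2% of all probe sets did. With the group as the other term of the fit, Insig1 was lower in the arrays numbered 2 by 0.55 (difference -0.55, limma adjusted p = 0.000204). Insig2 was higher there by 0.29 (adjusted p = 0.0219), Abcg1 by 0.26 (0.00313), Fdps by 0.21 (0.0396) and Npc1 by 0.16 (0.0399). These are 4 of 28 members higher and 1 lower, against 6.43% and 4.75% of all probe sets. INSIG1 and INSIG2 share a function, and their genes moved in opposite directions between the numbers in all 4 groups. Marker lists differed between the numbers too: in the arrays numbered 2, 8 of 10 neutrophil markers were higher (median 0.58) and 6 of 10 macrophage markers (median 0.32). Of 8 mast cell markers 4 were higher and 1 lower, and 5 of 12 LXR genes, Nr1h3 and Rxra among them, were higher. Their part in the number effect on the members was not tested. The labels leave the meaning of the numbers unstated.

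Genes around the pathway were read from lists drawn up with the members, and counts are those with the block. Of 12 measured LXR genes, 5 fell with the full-length fusion and 0 rose (all probe sets: 4.43% and 2.18%), with a median of -0.30. Nr1h3, the gene of LXR alpha, fell by 1.19 (limma adjusted p = 0.00105 with the block, 0.344 without). Its partner Rxra fell by 0.71, the target Smpdl3a by 0.59 and the lipoprotein lipase gene Lpl by 0.43. For Smpdl3a the full-length and empty vector arrays overlapped. Without the block none of the 12 passed with the full-length fusion. With delFG1, 4 fell (Nr1h3 by 1.10, Lpl by 0.47, Rxra by 0.57, and Abcg4), and with delFG2 Nr1h3 fell by 0.89. Of all probe sets 4.18% fell with delFG1 and 0.399% with delFG2. The counts of LXR genes hold for that list alone. Abcg1 and Abca1, also targets of LXR, were listed with the transport genes (full-length differences -0.60 and 0.01). Scd1, which rose, and Srebf1 were likewise counted in other lists. Of 9 further genes of synthesis and uptake, 4 had a higher mean with the full-length fusion (median -0.03) and 2 with delFG1 (median -0.09). Lipa, the lysosomal lipase that frees cholesterol from its esters, fell by 0.55 with the full-length fusion, 0.58 with delFG1 and 0.36 with delFG2. Cyb5r3, an electron donor for sterol enzymes, fell by 0.23 with the full-length fusion and by 0.24 with delFG1. Of 17 genes of sterol transfer inside the cell, 4 fell with the full-length fusion: Nceh1, a cholesteryl ester hydrolase, by 0.44, Osbpl11 by 0.40, Stard5 by 0.28 and Osbpl9 by 0.27. With delFG1 the same 4 fell, by 0.47, 0.37, 0.32 and 0.32, and Osbpl5 rose (all probe sets higher: 1.94%). With delFG2 0 of the 17 passed, where only 0.505% of all probe sets did.

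Fatty acid genes moved in both directions. With the full-length fusion 11 of 15 measured SREBP-1 targets had a higher mean (all probe sets: 56.6%), with a median difference of 0.13. For 8 the full-length arrays lay wholly above the empty vector arrays and for 1 wholly below (all probe sets: 23.4% and 15.6%). Of the 15, 3 rose with the full-length fusion by the block fit, against 2.18% of all probe sets. They are the desaturase genes Scd1 (by 0.81), Fads2 (by 0.55) and Scd2 (by 0.23). Me1, malic enzyme, fell by 0.60 with the full-length fusion and by 0.71 with delFG1, where 4.43% and 4.18% of all probe sets fell. Scd1 differed by 1.24 between the arrays numbered 1 and by 0.38 between those numbered 2. Of 12 genes of isoprenoid branches, 0 passed with the full-length fusion. Zmpste24, a protease of prenylated proteins, rose with delFG1 (0.69) and delFG2 (0.58), where 1.94% and 0.106% of all probe sets rose. Lists of 11 SREBP processing genes, 8 oxysterol and bile acid enzymes and 16 cell cycle genes were also read. In them 0 passed with any of the 3 constructs against the empty vector. Of all probe sets 6.61% passed with the full-length fusion, 6.12% with delFG1 and 0.505% with delFG2. Without the block 0 genes of these lists passed by limma for the full-length fusion.

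Most macrophage markers were lower where Npc1, Abcg1 and 5 of the 12 LXR genes were lower, while the 6 transport genes as a list had a median difference of -0.01 with the full-length fusion. Of all probe sets 4.43% were lower with the full-length fusion, 4.18% with delFG1 and 0.399% with delFG2 (block). Of 10 macrophage markers, 7 fell with the full-length fusion, among them Msr1 by 1.08 and Cd68 by 0.49, 8 fell with delFG1 and 3 with delFG2; with delFG2, Msr1 and Mrc1 were above the full-length fusion by 0.56 and 0.64 (block adjusted p = 0.0106 and 0.0333). The summed intensity of the 10 was 12505 and 16323 with the empty vector, 8508 and 10313 with the full-length fusion, 7836 and 10113 with delFG1, and 9407 and 12820 with delFG2. Of 10 neutrophil markers 5 fell with the full-length fusion, 4 with delFG1 and 0 with delFG2. All 10 neutrophil markers had a higher mean with delFG2 than in the full-length group, with a median difference of 0.57, and 4 of them passed, where 0.468% of all probe sets did. Of 8 mast cell markers 4 fell and 1, Ms4a2, rose with the full-length fusion, 6 fell with delFG1 and 0 passed with delFG2. Summed neutrophil intensity was 35159 and 45001 with the empty vector, 27870 and 35514 with the full-length fusion, 26942 and 36688 with delFG1, and 36601 and 42965 with delFG2. Of 4 erythroid markers Rhag fell with the full-length fusion, and 0 of 5 B cell, 4 T cell and 6 stroma markers passed there. The labels give no cell type to set these markers against, and no marker was listed at 0. In bulk RNA, fewer cells of a type and less RNA per cell cannot be told apart, and the part of these markers in the changes of Npc1, Abcg1 and the LXR genes was not tested.

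**Figure D5:**
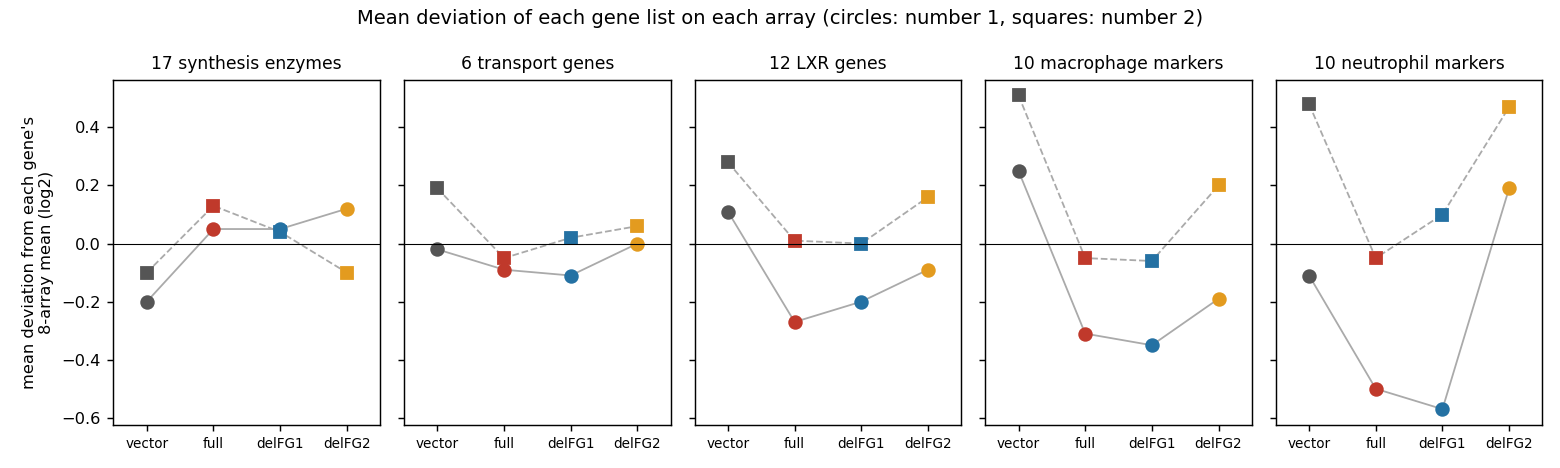
Mean deviation of a gene list from each gene's mean over the 8 arrays (y axis, log2) in the 4 groups, for the 17 synthesis enzymes, the 6 transport genes, the 12 LXR genes, and the 10 macrophage and 10 neutrophil markers; circles are arrays numbered 1 and squares those numbered 2. The enzymes run from -0.20 and -0.10 with the empty vector to 0.05 and 0.13 with the full-length fusion, and the macrophage markers from 0.25 and 0.51 to -0.31 and -0.05.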

How the data were processed

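Per the labels' protocols, total RNA was purified on RNeasy columns and labelled with a GeneChip whole-transcript kit. The values used are intensity per probe set, not log-transformed, as the authors deposited them for 28853 probe sets on 8 arrays. The sources used here do not say how background, summarisation and normalisation were handled. There are no detection calls, and no dim probe set was removed; with 2 arrays a group, array number sets the precision. Of the probe sets, 21789 carry 1 gene symbol in the platform annotation and were tested; 1621 carry several and 5443 none. A gene is read by its brightest probe set. Symbols of all 28 measured members matched RefSeq gene numbers.

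Values were analysed as log2(intensity + 1) with limma 3.58.1 in R 4.3.3 (lmFit, eBayes with trend), 4 group means over all 8 arrays, 4 residual and 4.62 prior degrees of freedom, Benjamini-Hochberg adjustment over all tested probe sets, threshold 0.05, two-sided. A second fit, planned as an alternative, added the number (replicate block, 3 and 7.78 degrees of freedom). It assumes a number effect shared by all groups, while the enzymes in delFG2 moved differently between the numbers. Across genes, the deviations from the group means of arrays with one number correlated between groups (r from 0.401 to 0.640, 6 pairs of groups), so the numbers were taken as pairing the arrays. Simulated data served only to check that the fits return the differences put in. A number effect was built into them, so they do not bear on what the numbers stand for. Described array by array are members that passed in either fit and the 3 with the smallest p in each main comparison (full-length fusion against empty vector, each mutant against full-length fusion), and, chosen after its values were seen, Idi1; other lists name up to 4 genes by smallest p with the block, and Abcg4 and the gene lists' counts come from the same fit. Members and lists were chosen with earlier results of these data known.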

Additional observations from a re-analysis of the deposited data

How the results depend on the processing

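Without the replicate block 0 members were called in all 6 comparisons, also with median centring, quantile normalisation, a pseudocount of 32, a filter on dim probe sets, no intensity trend, the 2 groups alone, the mean of a gene's probe sets, or any 1 array left out. With the replicate block the counts against the empty vector were 7 (full-length fusion), 5 (delFG1) and 1 (delFG2), and 0 in the other 3 comparisons. With the block and 1 array left out, the lone array of a group being assumed to vary like the others, the first count ran from 2 (without a full-length array) over 4 (without empty vector replicate 1) and 8 (without a delFG2 array) to 13 (without empty vector replicate 2). That for delFG1 ran from 2 to 10 and that for delFG2 from 0 to 5, both highest without empty vector replicate 2. For delFG2 against full length it ran from 0 to 1, the 1 being without either empty vector array. The median difference over members, 0.15 for the full-length fusion against empty vector, ran from 0.10 to 0.18 with 1 array left out and from 0.07 to 0.21 with the block too. For delFG1 it ran from 0.11 to 0.19 and from 0.07 to 0.21. For delFG2 against empty vector it ran from 0.01 to 0.18 and from -0.01 to 0.20, lowest without the first delFG2 array. For delFG1 against full length it ran from -0.07 to 0.00 and from -0.08 to 0.02. For delFG2 against full length it ran from -0.15 to 0.06 and from -0.17 to 0.08, and for delFG2 against delFG1 from -0.11 to 0.10 and from -0.12 to 0.13, each below 0 without the first delFG2 array and above 0 without the second. Of 456 values for 19 named gene results under the alternatives, 0 changed direction. This was largely fixed in advance. The block, no intensity trend, the filter, the 2 groups alone and leaving out an array of another group do not alter the difference itself. The 19 results were also picked for passing or for the smallest p. Block calls lost when an array was left out are given above. Sizes moved more: without the block and with 1 array left out, the full-length difference from the empty vector ran from 0.10 to 0.64 for Insig1 and from 0.13 to 0.51 for Fdps (0.21 to 0.43 with the block), that of delFG1 from 0.01 to 0.67 for Insig1, and that of delFG2 from full length from -0.37 to -0.11 for Lss and from -0.33 to -0.06 for Sc5d. The causes were not tested. Background correction and slide could not be varied from these files.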
